A study of Arabidopsis thaliana with 30 samples.

Results

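The probe table used here gave 13333 Arabidopsis thaliana genes a probe set of their own on the ATH1 array. It named no gene for 8730 further probe sets, so it does not cover all genes on the array. Of the 13333 genes, 4 nuclear genes for proteins of the mitochondrion were followed across 5 root cell types and 2 pH values. They are AT5G15700, a phage-type RNA polymerase of the organelles, AT1G50400, a porin of the TOM40 type, AT5G02050, of the mitochondrial glycoprotein family, and AT4G36580, an AAA ATPase of the ATAD3 type. The members were given by locus, with their response to low pH already known, and each had 1 probe set that maps to no other gene. Ranked by the mean log2 change at pH 4.6 among 17039 tested probe sets, they stood at places 11 (AT4G36580), 30 (AT5G02050), 38 (AT5G15700) and 49 (AT1G50400), so their pH response is a description here and was given no test.

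A plant mitochondrion makes only a small part of its own proteins. Most are encoded in the nucleus, made in the cytosol and brought in through the TOM complex of the outer membrane, whose channel is formed by TOM40, and then through carriers and motors of the inner membrane. Transcription of the mitochondrial genome itself rests on nuclear-encoded polymerases that resemble those of bacteriophages, and the polymerase of the RPOTmp type is known in both mitochondria and plastids. Proteins of the p32 (MAM33) type, to which the glycoprotein family belongs, lie in the matrix, and in animals the ATAD3 proteins span the inner membrane and are tied to the nucleoid and to contact between membranes.

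RNA came from protoplasted roots of Columbia seedlings aged 6 days, from which GFP-positive cells were sorted. Each cell type was measured at pH 4.6, given for the last 24 h before sorting, and at the standard pH 5.7. Both media were Murashige and Skoog salts with sucrose and 3 mM DMG, seedlings of both groups had first spent 5 days at pH 5.7, and each of the 10 groups had 3 replicates. The marker lines were Pet111::GFP for the columella root cap (called columella), pWER::GFP for the epidermis and lateral root cap (called epidermis), pCOR315.1::GFP for the cortex, pSCR::GFP for the endodermis and quiescent center (called endodermis) and pWOL::GFP for the stele, so a sample is as pure as its reporter and may hold more than 1 tissue. The labels do not say whether replicates were separate cultures, and the p-values then measure only the spread between these samples.

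Signals are the deposited MAS5 values of a probe set in linear intensity units, which can be compared between arrays for 1 probe set but not between probe sets. Median signals of the 30 arrays lay between 43.8 and 71.7, and arrays of a group correlated over probe sets with r between 0.945 and 0.981. Changes are given as log2(signal + 11.9), pH 4.6 minus pH 5.7, with the standard error of a limma fit to all 30 arrays, and they understate the change of a faint gene. In sorted bulk RNA, a lower share of cells with a transcript and less of it per cell cannot be told apart. Cell type markers were measured only where the probe table gave them a probe set of their own. These were 3 of 3 for cortex, 2 of 5 for epidermis, 2 of 5 for endodermis, 1 of 2 for quiescent center, 2 of 4 for stele and 0 of 4 for columella. None of the measured markers was at 0. Summed cortex markers were 2642 to 3871 in cortex cells at pH 4.6 and 6896 to 7894 at pH 5.7, against at most 442 on any other array. The columella label was thus not checked, and summed stele markers reached 800.1 to 825 at pH 4.6 and 549.9 to 730.1 at pH 5.7 in columella cells, beside 545 to 986 at pH 4.6 and 311 to 474 at pH 5.7 in stele cells. The 2 stele markers differed. AT1G30490 had higher means in columella (538 at pH 4.6, 405 at pH 5.7) than in stele (295 and 176). AT2G27230 was higher in stele at pH 4.6 (428, against 273 in columella) and lower there at pH 5.7 (217, against 251).

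All 4 genes had higher signals at pH 4.6 in every cell type, with no overlap between the 3 and 3 arrays in any of the 20 comparisons. The mean log2 change over the cell types ran between 1.77 ± 0.094 for AT1G50400 and 2.39 ± 0.12 for AT4G36580, which is a fold of 3.41 and of 5.24. Of all tested probe sets, 20.2% were free of overlap in this direction in columella, 14.9% in epidermis, 21.2% in cortex, 15.8% in endodermis and 15.9% in stele. Across the series, 2.66% were free of overlap in this direction in all 5 cell types, and 0.47% had a log2 change above 1 in each of them, as all 4 genes did. Because the genes were chosen by this response, nothing is read from these counts.

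**Figure D1:**
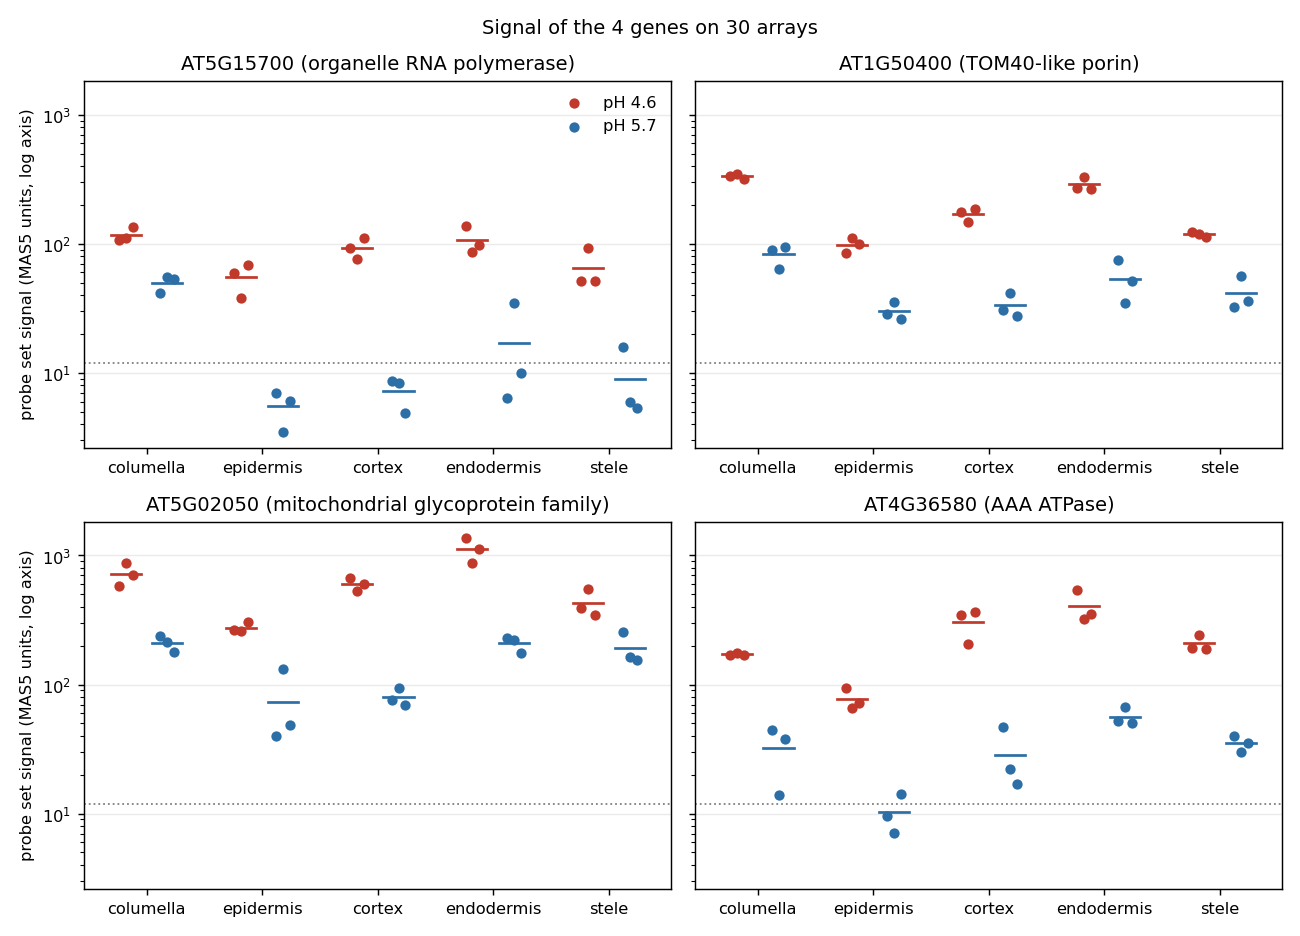
Signal of each gene's probe set on every array, on a log axis, with pH 4.6 (red) left of pH 5.7 (blue) in each cell type, bars at the mean of 3 arrays and a dotted line at the pseudocount of 11.9. Every red point lies above every blue point of its cell type, and outside the columella 10 of the 12 blue points of AT5G15700 lie under the dotted line.

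AT5G15700, the polymerase gene, was faint at pH 5.7 outside the columella. Its signals were 108, 112 and 135 in columella cells at pH 4.6, against 41.7, 55.1 and 53 at pH 5.7. In epidermis they were 59.4, 38.2 and 68 at pH 4.6 and 6.98, 3.51 and 6.09 at pH 5.7. The columella was the cell type in which the gene stood clear of the pseudocount on every pH 5.7 array. Cortex arrays read 93, 75.9 and 111 at pH 4.6, against 8.71, 8.29 and 4.87 at pH 5.7. Endodermis arrays read 136, 86.4 and 98.3 at pH 4.6, against 6.37, 35.1 and 10.01 at pH 5.7, where replicate 2 was the high one. The stele had 51.8, 93 and 51.8 at pH 4.6 and 15.8, 5.9 and 5.34 at pH 5.7. On 10 of the 15 pH 5.7 arrays the signal was under the pseudocount, and on 11 it was under percentile 40 of its array. The log2 changes were 1.07 ± 0.29 (SE) in columella, 1.92 ± 0.29 in epidermis, 2.45 ± 0.29 in cortex, 2.14 ± 0.29 in endodermis and 1.88 ± 0.29 in stele. Their size depends on the pseudocount, and the mean over cell types of 1.89 ± 0.13 became 2.71 with a pseudocount of 1 and 0.98 with one of 55.3.

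AT1G50400, whose protein is of the same porin type as the import channel, was brightest in columella and endodermis. It read 336, 349.5 and 319 in columella cells at pH 4.6, against 89.5, 63.4 and 95.1 at pH 5.7. In endodermis it read 270.0, 331 and 266 at pH 4.6, against 74.9, 34.7 and 51.7 at pH 5.7. The log2 changes there were 1.89 ± 0.21 and 2.24 ± 0.21, and the endodermis had the largest of the 5. Cortex arrays gave 176, 147 and 186 at pH 4.6 and 30.7, 41.9 and 27.6 at pH 5.7, a change of 2.01 ± 0.21. The stele gave 124, 118 and 113 at pH 4.6 and 32.4, 56 and 35.9 at pH 5.7, a change of 1.32 ± 0.21. In epidermis the arrays gave 84.2, 111 and 99.8 at pH 4.6 and 28.5, 35.6 and 26.2 at pH 5.7, a change of 1.39 ± 0.21. No array of this gene fell under the pseudocount, and 1 of its 15 pH 5.7 arrays was under percentile 40.

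AT5G02050 is the member with no array under percentile 40 at either pH. Endodermis arrays stood highest at pH 4.6, with 1355, 876 and 1116, against 229, 222 and 176 at pH 5.7, a log2 change of 2.34 ± 0.27. In cortex the signals were 671, 528 and 599 at pH 4.6, against 76.1, 94.8 and 69.5 at pH 5.7, and the change of 2.73 ± 0.27 was the largest of the 5. At pH 5.7 the cortex read lower than columella, endodermis and stele on every array, while at pH 4.6 it read above the epidermis and, on 2 of 3 arrays, above every stele array. Columella gave 579, 871 and 703 at pH 4.6, against 237, 214 and 179 at pH 5.7 (1.70 ± 0.27). Epidermis gave 264, 259 and 303 at pH 4.6, against 39.99, 132 and 48.9 at pH 5.7 (1.90 ± 0.27), with replicate 2 high at pH 5.7. The stele had the smallest change, 1.12 ± 0.27, with 389.8, 552 and 347 at pH 4.6 and 258, 163 and 155 at pH 5.7. Its highest pH 5.7 array thus came nearer to its lowest pH 4.6 array than in any other cell type.

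AT4G36580, the AAA ATPase, had the largest mean change of the 4, and its log2 change was above 2 in all 5 cell types. Both depend on the pseudocount: with one of 55.3 its mean change was 1.61, under the 1.67 of AT5G02050, and its change was 1.01 in epidermis, 1.40 in columella and 1.54 in stele. The cortex gave 346, 206 and 365 at pH 4.6, against 46.8, 22.2 and 16.9 at pH 5.7, a change of 3.00 ± 0.27. In endodermis the signals were 536, 320.0 and 354 at pH 4.6, against 52.2, 66.9 and 50.1 at pH 5.7 (2.58 ± 0.27). These were the cell types with the highest means at pH 4.6. The stele gave 193, 244 and 190.2 at pH 4.6 and 39.8, 30.2 and 35.2 at pH 5.7 (2.23 ± 0.27). Columella arrays at pH 4.6 were almost equal, at 171, 175 and 171, while those at pH 5.7 read 44.6, 13.9 and 37.9 (2.14 ± 0.27). The epidermis was the faintest, with 94.6, 66 and 71.6 at pH 4.6 and 9.63, 7.02 and 14.2 at pH 5.7 (2.01 ± 0.27). Of its 15 pH 5.7 arrays, 7 were under percentile 40 of the array and 2 under the pseudocount, both in epidermis.

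The level of each gene between cell types, averaged over both pH values, does not use the pH contrast and was tested. All 4 genes differed between the cell types (limma, AT5G15700 F = 14.3, adjusted p = 3.05e-06, AT1G50400 F = 29.8, adjusted p = 2.57e-09, AT5G02050 F = 25.7, adjusted p = 1.19e-08, AT4G36580 F = 25.6, adjusted p = 1.27e-08), as did 89.5% of all tested probe sets. The epidermis had the lowest mean of the 5 for every member, and 27.3% of tested probe sets had their lowest level there. Its difference from the stele did not pass for AT5G15700 and AT1G50400 (limma adjusted p = 0.403 and 0.111). Nor did its difference from the cortex for AT5G15700 (limma adjusted p = 0.102). The genes did not share a highest cell type, which was columella for AT5G15700 and AT1G50400 and endodermis for AT5G02050 and AT4G36580.

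For AT5G15700 the mean log2 level was 6.48 ± 0.17 in columella, 5.80 ± 0.55 in endodermis, 5.48 ± 0.21 in cortex, 5.29 ± 0.40 in stele and 5.08 ± 0.27 in epidermis (SD within groups, n = 6 each). Only the step between columella and endodermis passed among neighbours in this order (0.68 ± 0.20, limma adjusted p = 0.00482), and the other 3 steps had adjusted p-values of 0.195 to 0.469. At pH 4.6 the signals of columella (108 to 135) and endodermis (86.4 to 136) overlapped. They were apart at pH 5.7 (41.7 to 55.1 and 6.37 to 35.1), where the endodermis was partly under the pseudocount. AT1G50400 ran in the same order, with 7.49 ± 0.20 in columella, 7.11 ± 0.34 in endodermis, 6.49 ± 0.20 in cortex, 6.37 ± 0.24 in stele and 6.08 ± 0.17 in epidermis. Its endodermis stood above its cortex by 0.62 ± 0.15 (limma adjusted p = 0.00101). The step between columella and endodermis (0.38 ± 0.15, limma adjusted p = 0.0261) lost its call with quantile normalization, when medians were made equal, and when any 1 of 4 arrays was left out, where the adjusted p reached 0.121. Those were columella pH 5.7 replicates 1 and 3, endodermis pH 4.6 replicate 3 and endodermis pH 5.7 replicate 2. Cortex and stele, and stele and epidermis, did not pass (limma adjusted p = 0.517 and 0.111), although cortex and stele did with quantile normalization and with equal array medians.

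AT5G02050 had 8.95 ± 0.26 in endodermis, 8.64 ± 0.25 in columella, 8.20 ± 0.36 in stele, 7.88 ± 0.19 in cortex and 7.21 ± 0.57 in epidermis. The step between endodermis and columella did not pass (limma adjusted p = 0.154), although it did with equal array medians (0.0385), and neither did that between stele and cortex (0.166). Cortex stood above epidermis by 0.67 ± 0.19 (limma adjusted p = 0.00362), while the step between columella and stele (0.44 ± 0.19, limma adjusted p = 0.0401) lost its call under 10 of 38 alternatives, 8 of which left out 1 columella or stele array. AT4G36580 had 7.37 ± 0.30 in endodermis, 6.77 ± 0.49 in cortex, 6.66 ± 0.17 in stele, 6.45 ± 0.43 in columella and 5.46 ± 0.24 in epidermis. Its endodermis was above cortex by 0.60 ± 0.19 (limma adjusted p = 0.0107) and its columella above epidermis by 0.99 ± 0.19 (limma adjusted p = 5.56e-05). Cortex, stele and columella could not be ordered (limma adjusted p = 0.678 and 0.347).

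**Figure D2:**
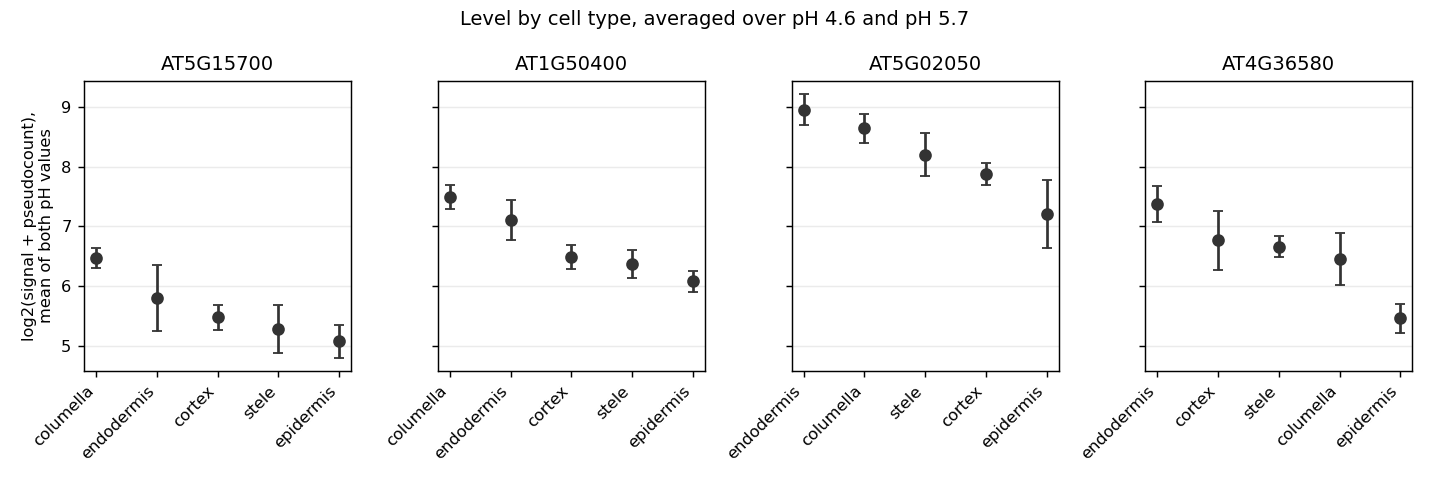
Mean log2(signal + 11.9) of each gene by cell type, averaged over both pH values and sorted within each gene, with bars of 1 SD within the groups of 3 arrays. The epidermis has the lowest point in all 4 panels, and heights are not comparable between genes.

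The relatives of AT4G36580 and AT5G02050 were tested. Those of the polymerase and of the porin had no probe set of their own in the probe table and were not analysed here. All 3 other ATAD3-type ATPases rose in the mean pH response, with a median log2 change of 1.60. The background was 23.2% of tested probe sets called higher and 18.9% lower (3948 and 3217, or 3074 and 4456 with equal array medians), with a median of 0.0039 over all. AT5G16930 changed by 1.72 ± 0.11 (limma adjusted p = 9.94e-13), with signals of 268, 214 and 225 in cortex cells at pH 4.6, against 45.6, 38.9 and 34.4 at pH 5.7. AT3G03060 changed by 1.60 ± 0.10 (limma adjusted p = 5.77e-13) and read 308, 364 and 428 in endodermis cells at pH 4.6, against 101, 58.5 and 84.6 at pH 5.7. Both rose in all 5 cell types and were free of overlap in each. AT2G18330 changed by 0.93 ± 0.083 (limma adjusted p = 5.46e-10), rose in 4 cell types, and in stele missed the threshold with 0.58 ± 0.19 (limma adjusted p = 0.0547). It read 281, 278 and 231 in stele cells at pH 4.6 and 159, 185 and 169.7 at pH 5.7, which do not overlap. The size of the change differed between cell types for AT3G03060 (limma interaction adjusted p = 0.0199), with 0.96 ± 0.23 in columella and 2.28 ± 0.23 in cortex, and 12.5% of tested probe sets passed this test. For the other 2 it did not pass (0.121 and 0.134).

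In the glycoprotein family, 6 of 9 other genes rose in the mean pH response, 0 fell, and 3 did not pass, with a median of 0.48. AT5G05990 (1.20 ± 0.18, limma adjusted p = 5.66e-06), AT3G55605 (1.13 ± 0.13, 3.83e-08) and AT2G39795 (0.96 ± 0.12, 1.36e-07) had the larger changes. AT3G55605 read 508, 275 and 339 in endodermis cells at pH 4.6, against 120.4, 144 and 161 at pH 5.7, and its groups did not overlap in any cell type. AT5G05990 read 28.2, 49.8 and 37.6 in cortex at pH 4.6, against 2.08, 1.99 and 6.03 at pH 5.7, all of the second group under the pseudocount, and in columella and stele its groups overlapped. AT1G80720 (0.54 ± 0.13, limma adjusted p = 0.000994), AT4G32605 (0.48 ± 0.17, 0.025) and AT4G31930 (0.36 ± 0.12, 0.0157) rose by less. The last 2 lost their calls with quantile normalization and with equal array medians, and AT4G32605 also with a pseudocount of 1, with adjusted p-values of up to 0.0576 and 0.0674. AT1G15870 (0.35 ± 0.15, limma adjusted p = 0.0604), AT2G41600 (0.05 ± 0.095, 0.727) and AT2G39790 (-0.13 ± 0.13, 0.462) did not pass. AT2G39790 was lower in columella, at 8.32, 17.4 and 22.7 at pH 4.6, against 57.8, 69.4 and 47.3 at pH 5.7 (-1.35 ± 0.29, limma adjusted p = 0.000989). Called higher were 0 of 9 in columella, 4 in epidermis (of which AT1G80720 lost its call with the replicate block, limma adjusted p = 0.0691), 5 in cortex, 4 in endodermis and 1 in stele, where 9.95%, 6.9%, 11.6%, 9.6% and 4.18% of tested probe sets were.

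**Figure D3:**
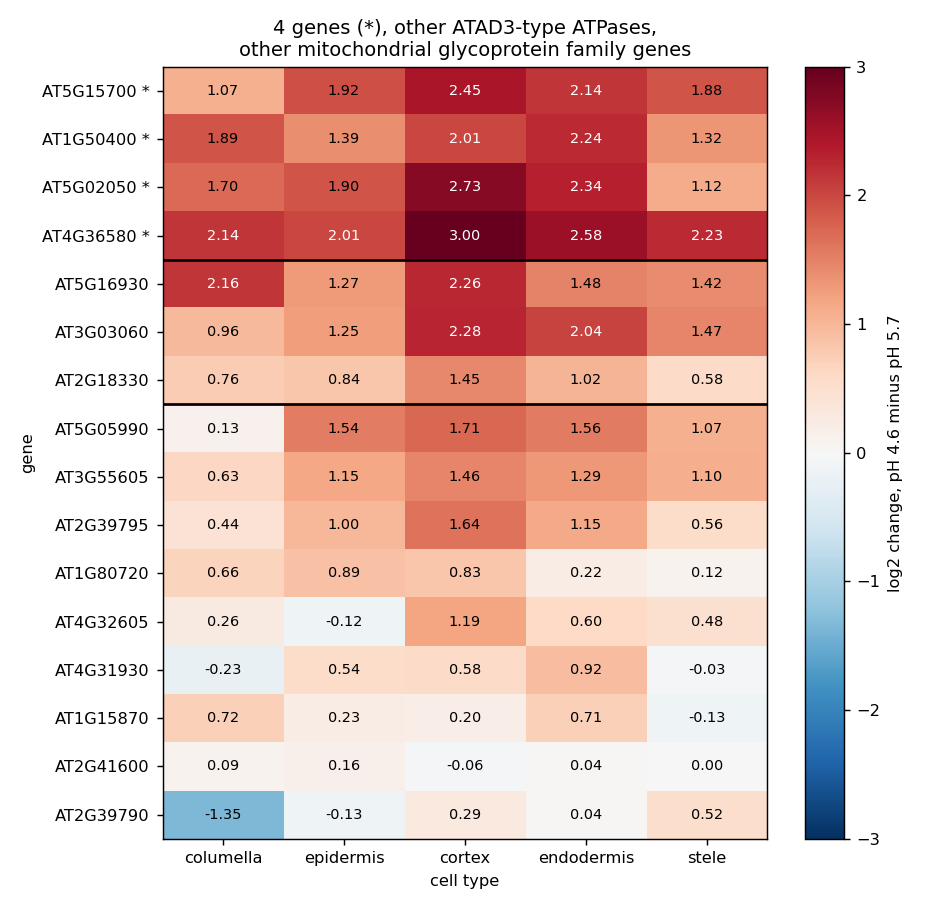
Log2 change, pH 4.6 minus pH 5.7, in each cell type (colour and number) for the 4 members (starred, described without a test), for 3 other ATAD3-type ATPases and for 9 other genes of the mitochondrial glycoprotein family. The ATPases are positive in all 5 cell types, while the lower glycoprotein family genes are near 0 in several.

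Across 12 lists of 193 loci for nuclear genes of mitochondrial proteins and of mitochondrial stress, 72 genes other than the 4 members were tested, and 44 rose and 1 fell in the mean pH response (median log2 change 0.35), where 23.2% of all tested probe sets were called higher and 18.9% lower. Without the list of mitochondrial stress genes, 38 of 66 rose and 1 fell. In the single cell types, 15 of 72 rose in columella, 29 in epidermis, 26 in cortex, 26 in endodermis and 14 in stele. Of all tested probe sets, 9.95%, 6.9%, 11.6%, 9.6% and 4.18% were called higher in these cell types, and 10.6%, 3.26%, 7.51%, 6.97% and 2.86% lower. With equal array medians the split of all calls turned toward lower ones, with 782 higher and 789 lower in epidermis, 1529 and 1774 in cortex, 1333 and 1523 in endodermis and 442 and 646 in stele, while 37 of the 44 list genes still passed as higher in the mean response. The epidermis count was 17 without epidermis pH 4.6 replicate 2 or without pH 5.7 replicate 3, the endodermis count was 17 without endodermis pH 4.6 replicate 1, and the stele count was 9 without stele pH 4.6 replicate 2.

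The import machinery was thinly covered, because the probe table gave few of its loci a probe set of their own. These were 3 of 14 listed for the outer membrane and 4 of 24 for the inner membrane and intermembrane space. Its counts stand beside 23.2% of all tested probe sets called higher in the mean response and 18.9% lower. In the outer membrane, 2 of 3 tested genes rose, the metaxin AT2G19080 by 0.34 ± 0.083 (limma adjusted p = 0.00139) and AT5G05520, of the SAM50 type that inserts barrel proteins, by 0.33 ± 0.10 (0.0123, and 0.0657 with equal array medians). In the inner membrane all 4 tested genes rose, but 2 did with quantile normalization and with equal array medians. AT5G61880, a PAM16-like part of the import motor, changed by 1.36 ± 0.15 (limma adjusted p = 3.48e-08) and read 266, 209 and 225 in cortex cells at pH 4.6, against 49, 58.7 and 61.4 at pH 5.7. AT5G03030, a DnaJ-like protein of the TIM14 type, changed by 0.90 ± 0.092 (limma adjusted p = 6.97e-09) and read 2859, 2535 and 2157 in columella cells at pH 4.6, against 1067, 714 and 909.9 at pH 5.7. Both were separate between the pH groups in the cell type shown. Another TIM14-type gene, AT3G09700, changed by only 0.37 ± 0.15 (limma adjusted p = 0.0459), and this call was lost under 22 of 38 alternatives. Of 5 genes that process imported proteins, 2 rose. AT1G09300, an aminopeptidase of the ICP55 type, changed by 1.31 ± 0.082 (limma adjusted p = 3.68e-13), rose in all 5 cell types and read 399.6, 375 and 368 in epidermis cells at pH 4.6, against 173, 135 and 156 at pH 5.7. AT3G08980, of the inner membrane peptidase family, changed by 0.34 ± 0.099 (0.00575). Among chaperones and proteases 3 of 6 rose, and AT1G23100, a GroES-like co-chaperonin, changed by 1.30 ± 0.15 (limma adjusted p = 4.54e-08) with a rise in each of the 5 cell types. The small heat shock protein HSP23.5, AT5G51440, changed by 0.88 ± 0.15 in the mean, with 3.08 ± 0.33 in columella and no call in the other 4 cell types. NCLPP7, the mitochondrial ClpP subunit, changed by 0.21 ± 0.080 (limma adjusted p = 0.039), a call that 16 of 38 alternatives removed.

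Of the genes of mitochondrial ribosomes and translation, 14 of 18 rose, 0 fell and 4 did not pass, with a median of 0.47. Of the nuclear genes of the respiratory chain, 3 of 16 rose (5 with quantile normalization), 1 fell and 12 did not pass, with a median of 0.10. Over all tested probe sets 23.2% were called higher and 18.9% lower, so the respiratory chain count lay near that background. The difference between these lists was not tested. AT4G02930, the mitochondrial elongation factor Tu, changed by 1.28 ± 0.073 (limma adjusted p = 7e-14) and rose in all 5 cell types. It read 1907, 1602 and 1597 in cortex cells at pH 4.6, against 520.3, 381 and 496 at pH 5.7. In epidermis it read 1458, 1500.3 and 1492 at pH 4.6, against 575, 693 and 562 at pH 5.7, again with no overlap. Its exchange factor, the Ts-type AT4G11120, changed by 0.75 ± 0.089 (limma adjusted p = 8.27e-08). It read 196, 221 and 223 in columella cells at pH 4.6, against 216, 238 and 172 at pH 5.7, where the groups overlapped, and 201, 172 and 157 in cortex at pH 4.6, against 58.4, 66.2 and 72 at pH 5.7, where they did not. HLL, a mitochondrial ribosomal protein of the L14 family, changed by 0.85 ± 0.18 (limma adjusted p = 0.000376) without passing in any single cell type. By cell type, 1 of the 18 translation genes passed as higher in columella, 9 in epidermis, 5 in cortex, 7 in endodermis and 2 in stele, where 9.95%, 6.9%, 11.6%, 9.6% and 4.18% of tested probe sets were. The columella count was thus no larger than its background.

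Among the respiratory chain genes, CYTC-2, a cytochrome c, changed by 0.80 ± 0.074 (limma adjusted p = 1.02e-09) and SDH1-1, the flavoprotein subunit of succinate dehydrogenase, by 0.60 ± 0.063 (1.05e-08). CYTC-2 read 5622, 6881 and 6467 in endodermis cells at pH 4.6, against 3128, 2488 and 3611 at pH 5.7. FRO1, a subunit of complex I, was the gene that fell (-0.30 ± 0.069, limma adjusted p = 0.000763), with 4061, 3914 and 3513 in endodermis at pH 4.6 and 4908, 5738 and 4690.0 at pH 5.7, and it passed in no single cell type. In the respiratory chain list 13 of 16 mean changes were positive, with a range of -0.30 to 0.80, beside a median of 0.0039 over all tested probe sets. For DNA maintenance, 2 of 13 listed loci had a probe set of their own in the probe table. Of these 2 genes, 1 rose, OSB1, an organellar protein that binds single-stranded DNA (0.55 ± 0.11, limma adjusted p = 0.000196). Over all tested probe sets, 23.2% were called higher in the mean response. Of 16 listed mitochondrial stress loci, 6 had a probe set of their own in the probe table. All 6 of these rose, beside the same 23.2% of all tested probe sets (median 2.43). They were led by AT5G09570, a twin-cysteine protein (3.57 ± 0.14), by AT2G21640, the oxidative stress marker UPOX (3.38 ± 0.13), and by AT2G41730 (3.11 ± 0.11). These genes were known in these arrays for a rise at low pH, so their count is not independent. The other lists too were chosen with earlier results of these data known, so their counts are not independent either.

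**Figure D4:**
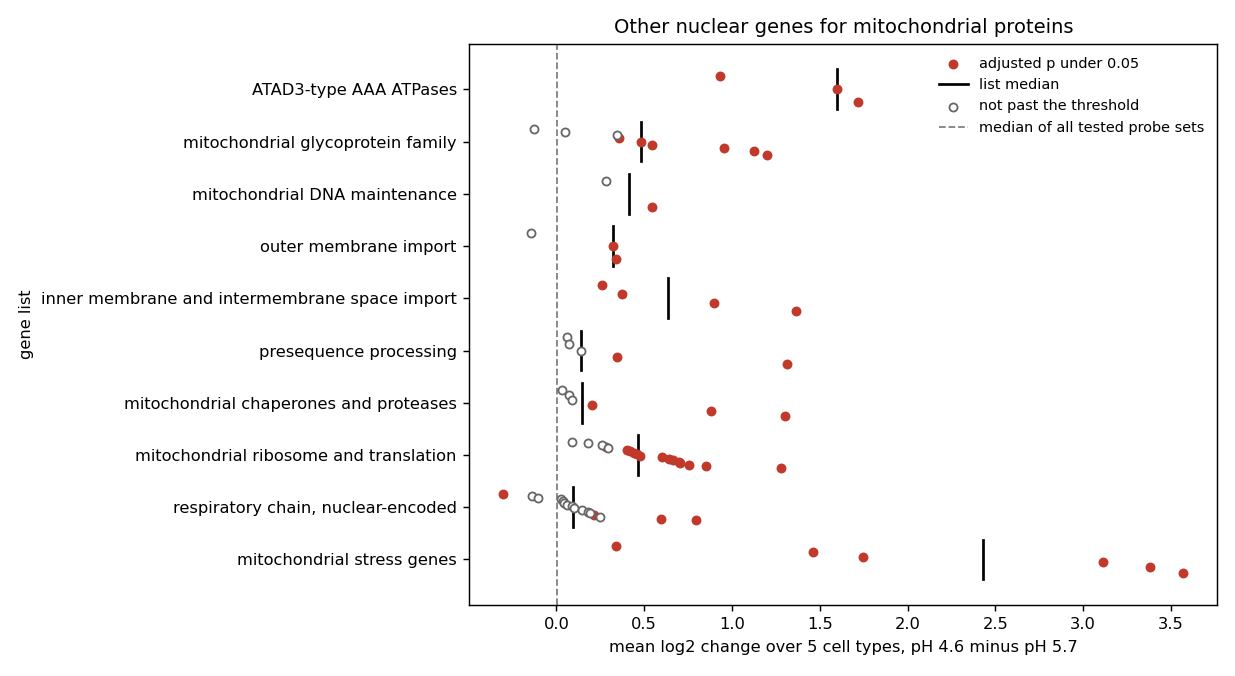
Mean log2 change over 5 cell types of each tested list gene, with red points past the adjusted p of 0.05, open points not past it, a black bar at the list median and a dashed line at the median of all tested probe sets. The ATAD3-type ATPases and stress genes lie to the right, while most respiratory chain genes lie close to the dashed line.

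The 4 members were compared with each other over the 30 arrays, as a description, since all of them share the arrays and the pH response by which they were chosen. Pearson's r of log2 values lay between 0.840 and 0.913 over the 6 pairs, and between 0.870 and 0.949 after the mean of each cell type was subtracted. After the mean of each group of 3 was subtracted it lay between -0.54 and 0.428 (median 0.115), and its sign differed between pairs. Among all tested probe sets with a single gene, those most like AT5G15700 were AT1G18850 (r = 0.921), AT3G45770 (0.921) and AT1G03760 (0.915). For AT1G50400 they were NRPC2 (r = 0.937), AT4G28450 (0.927) and NRPA2 (0.922), where NRPC2 and NRPA2 are second-largest subunits of RNA polymerases III and I. For AT5G02050 they were NRPA2 (r = 0.956), AT5G64680 (0.949) and AT4G28450 (0.949). The list thus overlapped with that of AT1G50400 in NRPA2 and AT4G28450. For AT4G36580 they were AT5G09570 (r = 0.941), AT3G03060 (0.937) and AT2G21640 (0.916), of which AT3G03060 is an ATAD3-type ATPase. With cell type means subtracted, the elongation factor AT4G02930 was among the 3 most alike for AT5G15700 (r = 0.947), AT5G02050 (0.962) and AT4G36580 (0.949). The other genes in those lists were ATG8B, an autophagy protein (0.956), and AT1G03760 (0.941) for AT5G15700, AT3G18600 (0.964) and AT4G15770 (0.959) for AT5G02050, and AT5G09570 (0.962) and AT1G09300 (0.961) for AT4G36580. For AT1G50400 they were AT1G48450 (0.948), AT5G09570 (0.941) and ICL, the isocitrate lyase of the glyoxylate cycle (0.936).

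Some cell type markers and some control ratios of RNA quality differed with pH in the same samples. In cortex samples the endodermis markers (2 of 5 measured) summed to 662 to 1005 at pH 4.6 and 1272 to 3111 at pH 5.7. The endodermis marker AT4G20140 was highest in endodermis (means of 4880 at pH 4.6 and 7029 at pH 5.7). The other, AT4G28100, had higher means in cortex (363 at pH 4.6, 418 at pH 5.7) than in endodermis (181 and 308). So did the quiescent center marker AT5G62165 (66.0 and 103 in cortex, 43.2 and 66.7 in endodermis). In stele samples the epidermis markers (2 of 5 measured) summed to 548 to 933 at pH 4.6 and 1485 to 3303 at pH 5.7, and in epidermis samples to 1046 to 1559 at pH 4.6 and 2809 to 8896 at pH 5.7. Columella samples held few of these transcripts, with epidermis markers at 20.6 to 50.0 at pH 4.6 and 19.4 to 81 at pH 5.7. The log2 ratio of 3′ to 5′ probe sets of the GAPDH control was lower at pH 4.6, without overlap, in columella (2.03 to 2.38, against 2.50 to 3.18 at pH 5.7), epidermis, cortex (1.19 to 1.70, against 2.15 to 2.77 at pH 5.7) and endodermis. In stele it overlapped (2.23 to 3.12 at pH 4.6 and 2.41 to 3.15 at pH 5.7). The same ratio of the actin control overlapped in all 5 cell types, and that of the ubiquitin control overlapped in 4 and was lower at pH 4.6 in cortex (2.04 to 2.40, against 2.70 to 2.93 at pH 5.7). Actin ratios, at 5.04 to 7.15 over all arrays, were larger than those of GAPDH and ubiquitin. The part of marker shifts and of RNA quality in the changes of the members and of the listed genes was not tested.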

How the data were processed

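Transcripts of 5 sorted root cell types were measured on 30 ATH1 arrays (Affymetrix), with 3 arrays per cell type and pH, grouped by the sample labels. The deposited values are probe set intensities on a linear scale that the authors made with MAS5, per the submitters' processing notes, with no version. A genome build is not given in the sources used here. RNA was amplified by a 2-cycle protocol before hybridisation, per the labels' protocols. The trimmed mean signal was the same on every array to within 250.02 and 250.03, so values are relative to the whole array, and the number of arrays limits the precision.

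Values were taken to log2 after adding 11.9, percentile 25 of all values. Of 22810 probe sets, 64 controls were left out, and 17039 were tested, which exceeded percentile 40 of an array on 3 or more arrays. A probe table gave 1 gene for 13513 probe sets, several for 503 and none for 8730, and 13484 of the first kind matched a locus of the TAIR10.1 annotation, used for names only. Of 189 listed loci other than the members, 72 had such a probe set and were tested, and the others were not. A mean per group was fitted with limma 3.58.1 in R 4.3.3 (empirical Bayes with trend, 20 residual degrees of freedom), on code tested on simulated data. It gave the difference pH 4.6 minus pH 5.7 by cell type and averaged over cell types, an F test for unequal differences (the interaction), and cell type levels over both pH values. Adjusted p-values are Benjamini-Hochberg over all tested probe sets, with a threshold of 0.05.

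The 4 members and the gene and marker lists were chosen with earlier results of these data known. Named are the members, every measured gene of their families, up to 3 called genes per other list with the largest mean change, and for each member the 3 genes with the highest correlation, over log2 values and again with cell type means subtracted. Alternatives were pseudocounts of 1 and 55.3, quantile normalization, equal array medians, no filter, a filter at percentile 60, moderation without a trend, the replicate number as a block, separate fits with 6 arrays each and leaving out each array. Same-numbered arrays of a cell type deviated together with r of -0.14 to 0.211, above 0.1 in 6 of 15 pairs. In epidermis all 3 pairs were (0.121 to 0.181), and each array correlated best with its own number, so the block is also given for epidermis calls it changed. In the other cell types the numbers were not taken to pair samples. Promoter motifs were not run, and no sequences are shown.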

Additional observations from a re-analysis of the deposited data

Results flagged for a closer look

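The pH response differed between cell types for 7 of the listed genes, by limma's interaction test over the 5 contrasts of pH 4.6 minus pH 5.7. AT2G41730 (interaction adjusted p = 6.36e-11) changed by 6.71 log2 in columella and by 1.15 in epidermis, its smallest change. AT2G21640 (1.73e-05) changed by 5.42 in columella and by 1.98 in epidermis. AT5G51440 (0.000186) changed by 3.08 in columella and by 0.18 to 0.48 elsewhere. AT2G39790 (0.0129) changed by -1.35 in columella and by -0.13 to 0.52 elsewhere, with signals under or near the pseudocount in cortex, endodermis and stele. AT4G11120 (0.0176) changed by 0.04 in columella and by 0.58 to 1.28 elsewhere. AT3G03060 (0.0199) and AT4G02930 (0.0224) changed most in cortex, by 2.28 and 1.85. Of all tested probe sets, 12.5% passed this test.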

How the results depend on the processing

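Over 24 results that answer a comparison, 896 of 917 values under the alternatives kept their direction and their side of the threshold or stayed within 1.5 times the count. Separate fits per cell type, with 6 arrays each, called 460 probe sets in epidermis, 1268 in endodermis and 630 in stele, against 1731, 2822 and 1201 in the fit to all arrays, and they have fewer degrees of freedom. Leaving out 1 array gave 781 to 2652 calls in epidermis, 1582 to 3107 in endodermis and 383 to 1455 in stele, and list genes called higher numbered 17 to 32, 17 to 30 and 9 to 18. List genes called lower numbered 0 to 1 in endodermis without 1 array, 2 in cortex and 1 in endodermis with equal array medians, and 0 in columella and 1 in endodermis with the filter at percentile 60. The cause of these shifts was not tested. Equal array medians moved the median change of all probe sets to -0.07 in epidermis, -0.10 in cortex and -0.04 in stele, against 0.05, 0.02 and 0.07. In endodermis it moved to -0.07, against -3.8e-05, and in the mean response to -0.08, against 0.0039. The columella stayed at -0.02. Changes that turned sign were of uncalled genes or steps, AT2G39790 (0.0562 with a pseudocount of 1), AT2G41600 (-0.0437 with quantile normalization, -0.0376 with equal medians) and the step between cortex and stele of AT4G36580 (-0.0437 to 0.23 without 1 array, negative without cortex pH 5.7 replicate 1). Of 912 values of the members' changes, 35 moved by more than the replicate spread and 0 turned sign. With the replicate block, 7178 probe sets were called in the mean response, against 7165, and it changed the call of AT1G15870, which passed, and of AT3G09700, which did not, and of no other named gene there. In epidermis it called 1848 probe sets, against 1731, and 27 list genes as higher, against 29, and changed 4 list gene calls, 1 of them of a named gene, AT1G80720. Signals near background limit AT5G15700 most.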

Other observations

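Of the mitochondrial genome, which phage-type polymerases transcribe, only probe sets of nad genes for complex I subunits were looked at. They were picked after the data were seen and do not stand for its other genes. Of 14 probe sets of 7 such genes, 7 of them for nad1, 7 were called higher and 0 lower in the mean pH response (limma, adjusted over all tested probe sets), with a median log2 change of 0.37 and a range of -0.12 to 0.98. The background was 23.2% called higher. In columella, nad6 changed by 2.11, both nad5 probe sets by 2.10 and 1.84, and nad4L by 1.18. These were called higher, as were 9.95% of all tested probe sets there. In cortex, nad4L (1.49), a nad5 probe set (1.02) and nad1 probe sets (1.33, 1.05 and 0.90) were called higher, beside 11.6% of all. In epidermis only nad4L was (1.14), beside 6.9% of all. In stele nad6 was called lower (-0.91, limma adjusted p = 0.0434), and the nad5 probe sets changed by -0.51 and 0.06 without a call. The nad1 probe sets disagreed, with mean changes of -0.05 to 0.75. RNA was amplified before hybridisation, and whether the nad signals follow the level or the transcription of mitochondrial RNA was not tested.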
